A study of Mus musculus with 48 samples.

Results

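The genes described here are 42 macrophage and inflammatory genes, of 53700 genes listed in the counts from mouse heart ventricles. They were chosen by gene symbol: 10 receptors and surface markers, 12 genes of leukocyte signalling, adhesion and the lysosome, the 3 chains of complement C1q, 4 genes of MHC class II, 7 chemokines, 3 cytokines and 3 transcription factors. All 42 were found, and 41 passed the filter on low counts. Il6, which encodes interleukin 6, did not pass it, with 61 counts in all, found in 17 of 48 libraries.

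RNA from both ventricles of 48 male C57BL/6 mice was sequenced, 6 mice in each of 8 groups. CBK mice carry Bmal1 flox/flox with Cre recombinase, and their littermates, BMAL1 FLOX, carry Bmal1 flox/flox alone. CEK mice carry E4bp4 flox/flox with Cre, and their E4BP4 FLOX littermates lack Cre. CBK/CEK mice carry both floxed genes with Cre, and BMAL1/E4BP4 FLOX littermates carry both without it. Cre CON mice carry Cre and no floxed gene, and their littermates are WT. In all 4 lines Cre is carried as MHCαCre+/- and is driven by the MHCα (Myh6) promoter, which is active in heart muscle cells, so the knockouts are designed for those cells and not for macrophages. All groups but Cre CON and WT carry at least 1 floxed gene. Neither the age of the mice nor the hour at which hearts were taken is given in the sources used here. Comparing Cre CON with WT asks what Cre does without a floxed gene, and the other 3 pairs hold the effect of Cre together with that of losing Bmal1, E4bp4 or both. What the loss adds is asked by the differences between a knockout line and the Cre line.

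Macrophages are the most common leukocytes of the resting heart. Resident macrophages express LYVE1, TIMD4, the mannose receptor MRC1 and the scavenger receptor CD163, renew themselves locally and depend on signalling through the receptor CSF1R. Monocytes that express the chemokine receptor CCR2 leave the blood in answer to ligands such as CCL2, CCL7 and CCL8 and can become macrophages that present antigen on MHC class II. BMAL1 is the activator of the circadian clock and binds E-boxes, and E4BP4 is a repressor that binds D-boxes.

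Promoter windows from RefSeq, reaching from 250 bases before to 50 bases after a start on GRCm38.p6, were found for 29 of the 42 genes, 32 windows in all, and were searched on both strands. The E-box CACGTG was in 0 of these 32 windows and in 7.15% of all 32851 mouse windows of that length. The D-box letters TTATGTAA were in 1 of the 32 windows, and in 0.938% of all windows. The other D-box, TTACGTAA, was in 0 of the 32 windows and in 0.119% of all. GAGGAAG, the core bound by PU.1, was in 8 of 32 windows (C1qc, Ccl8, Cd53, Ctss, Itgam, Laptm5, Mrc1 and Tnf) and in 13.6% of all windows. Below stand windows of the members that passed the edgeR test in most comparisons, Ccr2 and Lcp1 in 2 each, and of Lgals3, the next by adjusted p. Of the 2 Lcp1 windows it is the one that holds the D-box, whose letters are in capitals. The D-box of Lcp1 starts 23 bases before the annotated start. Such matches describe the letters of these windows and say nothing of binding.
Ccr2 (chr9:124101933-124102232, GRCm38.p6, + strand): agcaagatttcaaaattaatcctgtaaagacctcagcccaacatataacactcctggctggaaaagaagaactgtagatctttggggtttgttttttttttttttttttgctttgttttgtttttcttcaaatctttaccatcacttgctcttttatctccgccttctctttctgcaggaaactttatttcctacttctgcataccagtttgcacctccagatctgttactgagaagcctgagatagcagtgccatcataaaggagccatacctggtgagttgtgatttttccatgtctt
Lgals3 (chr14:47373610-47373909, GRCm38.p6, + strand): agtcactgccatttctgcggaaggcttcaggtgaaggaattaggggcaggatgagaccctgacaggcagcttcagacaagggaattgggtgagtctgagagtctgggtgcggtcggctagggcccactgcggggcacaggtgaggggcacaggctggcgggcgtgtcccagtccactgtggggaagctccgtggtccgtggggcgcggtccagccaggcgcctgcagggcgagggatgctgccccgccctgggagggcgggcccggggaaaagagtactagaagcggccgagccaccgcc
Lcp1 (chr14:75136175-75136474, GRCm38.p6, + strand): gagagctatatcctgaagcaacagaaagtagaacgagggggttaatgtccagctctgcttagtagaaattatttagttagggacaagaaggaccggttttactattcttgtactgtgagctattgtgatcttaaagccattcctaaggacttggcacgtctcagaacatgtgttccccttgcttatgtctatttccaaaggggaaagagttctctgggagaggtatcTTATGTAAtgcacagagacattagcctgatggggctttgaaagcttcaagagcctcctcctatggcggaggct

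Depth was 13128833 to 28407868 gene counts per library, with WT replicate 1 deeper at 126338949. Levels are CPM, a gene's counts scaled to a common library size with TMM normalization factors, and 1 CPM is about 13.1 reads in the shallowest library. CBK replicates 3 and 5, CEK replicate 4 and BMAL1/E4BP4 FLOX replicate 6 stand apart in composition. CBK replicate 5 had the lowest mitochondrial share, 9.55%. The gene ENSMUSG00000119584, for which the gene names used here hold no symbol, took up to 33.4% of counts in CEK and 34.8% in BMAL1/E4BP4 FLOX. Both groups of the CEK line had more of that gene than the Cre line, 4.58% to 33.4% in CEK and 6.18% to 15.3% in E4BP4 FLOX, against 0.699% to 1.07% in Cre CON and 0.534% to 1.19% in WT. The targeted genes were measured as whole genes. Nfil3, which encodes E4BP4, averaged 0.643 ± 0.0947 CPM in CEK against 8.07 ± 1.40 CPM in E4BP4 FLOX (SD, n = 6 each), and 1.83 ± 0.648 CPM in CBK/CEK against 9.34 ± 1.65 CPM in BMAL1/E4BP4 FLOX. Arntl, which encodes BMAL1, was higher in libraries labelled CBK (8.40 ± 2.41 CPM) than in BMAL1 FLOX (1.04 ± 0.380 CPM), and in CBK/CEK (11.8 ± 0.893 CPM) than in BMAL1/E4BP4 FLOX (0.986 ± 0.327 CPM), so its whole-gene count does not show loss of the floxed part. Macrophage markers were present in every library (Csf1r at 30.7 to 54.1 CPM). Of other leukocytes, the summed level of 13 neutrophil markers was 2.55 to 23.3 CPM with Cxcr1 at 0 in all libraries, that of 14 T and NK cell markers was 2.10 to 5.16 CPM, and that of 9 B and plasma cell markers was 8.94 to 19.7 CPM. In these bulk samples fewer cells of a type and less RNA per cell cannot be told apart.

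In WT hearts the levels of the 42 genes ran from 0.00480 to 81.3 CPM per kb of exon, with exon lengths from the GENCODE annotation of GRCm38. Lyz2, which encodes the lysozyme of macrophages, had the highest level at 81.3 ± 5.88 CPM per kb (SD, n = 6), followed by the invariant chain gene Cd74 (51.3 ± 9.83), C1qa (40.8 ± 2.51) and C1qb (40.2 ± 3.70). C1qc stood at 20.2 ± 1.92 CPM per kb and the chemokine gene Cxcl12, which stromal cells and vessels also express, at 18.1 ± 2.31. Ccr2 was near the bottom at 0.247 ± 0.0702 CPM per kb, and below it were Ptprc at 0.213 ± 0.0370, Tnf at 0.186 ± 0.0643 and Il6 at 0.00480 ± 0.00907. C1qa and C1qb, neighbours in this order, differed by less than 1 SD, as did Ccr2 and Ptprc.

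As a set, the genes were higher with Cre in the CEK line and in the Cre line, and close to their controls in the CBK and CBK/CEK lines. In CEK against E4BP4 FLOX, 39 of 41 had a log2 fold change above 0 and the median was 0.44, where 53.2% of all 16623 genes tested were above 0 and their median was 0.02. Cre CON against WT gave 38 of 41 above 0 and a median of 0.42, where 47.0% of all genes were above 0 and their median was -0.01. CBK against BMAL1 FLOX gave 26 of 41 above 0 and a median of 0.08, beside 49.9% and 0.00 for all genes. In CBK/CEK against BMAL1/E4BP4 FLOX, 21 of 41 were above 0 and the median was 0.01, beside 46.8% and -0.02 for all genes. Few single genes passed the test in each line (edgeR adjusted p under 0.05, here termed called). The CBK line called 3 members higher and 1 lower, where 5.14% of all genes were called. CEK called 1 higher, where 0.144% of all genes were called. CBK/CEK called 1 higher and 1 lower, beside 4.28% of all genes, and Cre CON called 3 higher, beside 0.0602% of all genes. The shares called in the CBK/CEK line, 4.88% of members and 4.28% of all genes, were close to each other. At an unadjusted p under 0.05, 26 of 41 members were higher in CEK (4.20% of all genes) and 29 of 41 in Cre CON (4.32% of all genes). All 6 Cre libraries exceeded all 6 controls for 4 members in CEK (0.367% of all genes), 6 in Cre CON (0.361% of all genes), 2 in CBK (2.06% of all genes) and 0 in CBK/CEK (1.91% of all genes).

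**Figure D1:**
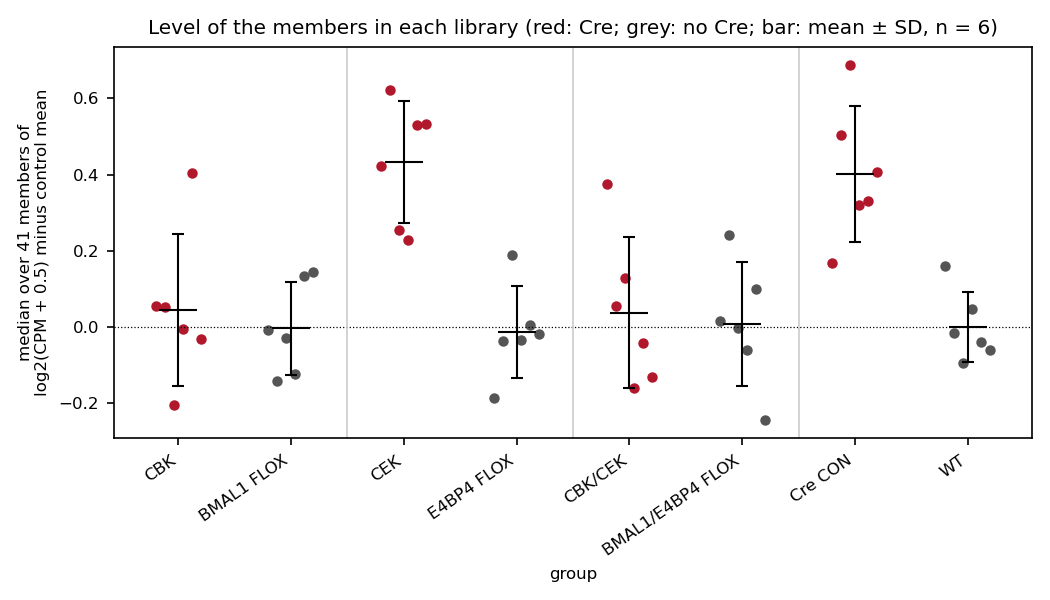
Median over 41 genes of log2(CPM + 0.5) minus the mean of the same line's control group, for each of 48 libraries (y axis) by group (x axis), with the mean ± SD of 6 libraries. The 6 CEK libraries lie at 0.23 to 0.62 and the 6 Cre CON libraries at 0.17 to 0.69, above all E4BP4 FLOX and WT libraries, while CBK and CBK/CEK overlap their controls.

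Each library was also read by its own median over the 41 genes, taken relative to the mean of its control group on the log2(CPM + 0.5) scale. CEK libraries stood at 0.23, 0.48 and 0.62 (lowest, median, highest), against -0.19, -0.03 and 0.19 in E4BP4 FLOX. Cre CON libraries stood at 0.17, 0.37 and 0.69, against -0.10, -0.03 and 0.16 in WT. Neither pair overlapped. CBK libraries were at -0.20, 0.02 and 0.40, against -0.14, -0.02 and 0.15 in BMAL1 FLOX, and CBK/CEK libraries at -0.16, 0.01 and 0.38, against -0.24, 0.01 and 0.24 in BMAL1/E4BP4 FLOX, with wide overlap in both. The highest CBK value was that of replicate 5, the library with the lowest mitochondrial share. With the share of ENSMUSG00000119584 as a covariate the median log2 fold change of the 41 genes was 0.48 in CEK and 0.43 in Cre CON.

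Ccr2, Lgals3, Cd52 and Ccl8 were the exception to this split between lines, since each had a log2 fold change of 0.71 or more in all 4 lines. That cutoff was read from these same values and is the lowest value of Cd52. Ccr2 encodes the receptor that brings monocytes into tissue. Its level was 2.26, 3.38 and 5.98 CPM in CBK (lowest, median, highest of 6), against 1.49, 1.59 and 2.38 CPM in BMAL1 FLOX. CEK libraries had 3.08, 4.62 and 7.25 CPM, against 1.22, 2.26 and 3.02 CPM in E4BP4 FLOX, and here the groups did not overlap. In CBK/CEK the values were 2.92, 4.52 and 6.40 CPM, against 0.656, 1.68 and 3.12 CPM in BMAL1/E4BP4 FLOX. Cre CON libraries had 1.72, 3.45 and 5.14 CPM, against 1.15, 1.52 and 2.38 CPM in WT. A single control library reached into the range of the knockouts in the CBK line (2.38 CPM) and in the CBK/CEK line (3.12 CPM). For Ccr2 the log2 fold change was 1.09 in CBK (edgeR adjusted p = 0.00997, SE 0.23), 1.07 in CEK (adjusted p = 0.123, SE 0.27), 1.41 in CBK/CEK (adjusted p = 0.00673, SE 0.29) and 0.97 in Cre CON (adjusted p = 0.149, SE 0.25). edgeR thus called Ccr2 in the CBK and CBK/CEK lines, and DESeq2 also in CEK (adjusted p = 0.0222) and Cre CON (adjusted p = 0.0274). It stayed called by edgeR in CBK and CBK/CEK when any 1 library of the line was left out. At 10 to 282 counts per library its values carry sampling error of the reads too.

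Lgals3 encodes galectin-3, a sugar-binding protein that recruited macrophages make in quantity. CBK libraries had 7.96, 13.5 and 18.4 CPM, all above BMAL1 FLOX with 3.59, 6.45 and 7.82 CPM. CEK libraries had 6.49, 11 and 14.5 CPM, against 2.26, 4.75 and 8.58 CPM in E4BP4 FLOX. CEK replicates 2 and 3, at 6.55 and 6.49 CPM, lay below the highest E4BP4 FLOX library. CBK/CEK values were 7.07, 11.4 and 16.5 CPM, against 1.89, 7.31 and 8.09 CPM in BMAL1/E4BP4 FLOX, and Cre CON values were 5.36, 7.80 and 15.3 CPM, against 3.22, 4.54 and 6.24 CPM in WT. The log2 fold change was 1.13 in CBK (edgeR adjusted p = 0.0123, SE 0.25), 1.08 in CEK (adjusted p = 0.123, SE 0.26), 0.95 in CBK/CEK (adjusted p = 0.134, SE 0.31) and 1.05 in Cre CON (adjusted p = 0.255, SE 0.28). edgeR called it in the CBK line and DESeq2 in all 4 (adjusted p up to 0.0460 in the other 3), and the 4 sizes lie within 1 SE of each other.

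Cd52 encodes a short anchored glycoprotein of leukocytes. It stood at 1.93, 2.68 and 5.12 CPM in CBK, with no overlap with 1.20, 1.58 and 1.89 CPM in BMAL1 FLOX. In CEK it was at 2.11, 3.11 and 6.13 CPM, against 1.34, 1.45 and 4.13 CPM in E4BP4 FLOX, where control replicates 2 and 3 (3.13 and 4.13 CPM) lay within the CEK range. CBK/CEK libraries had 1.98, 2.35 and 2.95 CPM, against 0.725, 1.28 and 2.183 CPM in BMAL1/E4BP4 FLOX, and Cre CON libraries had 1.79, 2.75 and 3.50 CPM, against 0.794, 1.66 and 2.13 CPM in WT. Both pairs overlapped at their edges. The log2 fold change was 1.07 in CBK (edgeR adjusted p = 0.0233, SE 0.26), 0.71 in CEK (adjusted p = 0.559, SE 0.33), 0.85 in CBK/CEK (adjusted p = 0.0841, SE 0.26) and 0.76 in Cre CON (adjusted p = 0.255, SE 0.23). The CBK call was lost without BMAL1 FLOX replicate 1, 2 or 4 or CBK replicate 2 (adjusted p up to 0.0654), and without CBK replicates 3 and 5 together (adjusted p = 0.0630).

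Ccl8, a chemokine gene of macrophages, was called by edgeR in no line, at log2 fold changes of 1.18 (SE 0.32) in Cre CON, 1.58 (SE 0.59) in CBK/CEK, 1.06 (SE 0.48) in CEK and 1.03 (SE 0.58) in CBK. Levels were low and uneven: 0.436, 1.15 and 5.40 CPM in CBK against 0.399, 0.890 and 1.60 CPM in BMAL1 FLOX, and 1.04, 1.38 and 2.94 CPM in Cre CON, where WT had 0.289, 0.624 and 1.15 CPM. CEK libraries had 0.687, 1.00 and 3.61 CPM against 0.420, 0.642 and 1.03 CPM in E4BP4 FLOX, and CBK/CEK libraries 0.411, 1.27 and 4.29 CPM against 0.0879, 0.383 and 1.21 CPM in BMAL1/E4BP4 FLOX. All 4 pairs overlapped. DESeq2 called it in Cre CON (adjusted p = 0.0497), and edgeR with the run of animal numbers as a covariate in CBK/CEK (adjusted p = 0.0236). Without CBK replicate 5 its log2 fold change in the CBK line was 0.42.

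**Figure D2:**
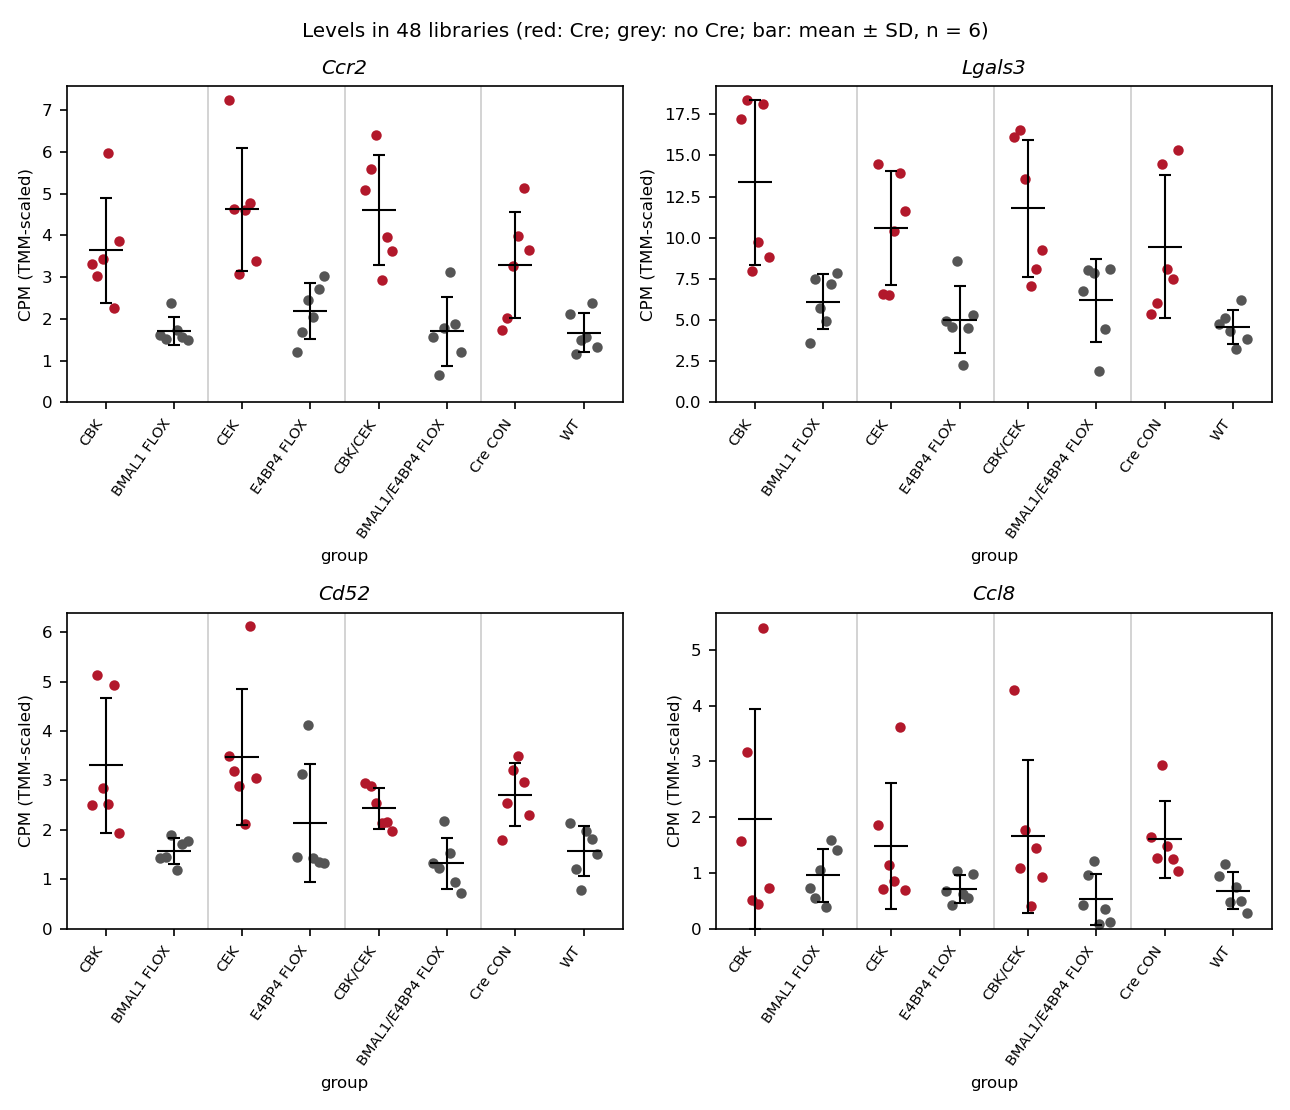
CPM (y axis) of Ccr2, Lgals3, Cd52 and Ccl8 in each of 48 libraries by group (x axis), with the mean ± SD of 6 libraries. In every line the Cre group's mean lies above that of its littermates, with no overlap for Lgals3 and Cd52 in CBK and for Ccr2 in CEK.

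The other 9 receptors and surface markers did not share this pattern. Lyve1, a hyaluronan receptor of resident macrophages and lymphatic vessels, was called in the CBK/CEK line. It had 11, 13.2 and 14.5 CPM in CBK/CEK, against 13.7, 18.1 and 23.7 CPM in BMAL1/E4BP4 FLOX, and only the lowest control library reached the knockout range. Its log2 fold change there was -0.50 (edgeR adjusted p = 0.0320, SE 0.13), a call lost when CBK/CEK replicate 2, 3 or 4 or BMAL1/E4BP4 FLOX replicate 1, 2, 5 or 6 was left out (adjusted p up to 0.0838). Endothelial markers, read beside it, summed to 768 to 863 CPM in CBK/CEK and 822 to 922 CPM in BMAL1/E4BP4 FLOX, with 2 of 11 above 0 beside 46.8% of all genes. These markers were also above 0 for 2 of 11 in CBK (49.9% of all genes) and 2 of 11 in Cre CON (47.0%). In CEK 6 of 11 were above 0 (53.2% of all genes). In the Cre line they summed to 797 to 890 CPM in Cre CON and 841 to 922 CPM in WT. Their part in the Lyve1 result was not tested. In CBK it stood at 14.7, 17.0 and 25.2 CPM against 11.4, 20.7 and 24.3 CPM in BMAL1 FLOX, and in Cre CON at 13.6, 18.1 and 21.9 CPM against 12.6, 17.2 and 19.8 CPM in WT. CEK libraries had 15.0, 17.7 and 20.8 CPM, against 9.84, 13.8 and 18.1 CPM in E4BP4 FLOX, a log2 fold change of 0.35 (adjusted p = 0.492, SE 0.14). Timd4, another resident marker, had a log2 fold change below 0 in all 4 lines, from -0.29 to -0.04, and was called in none. Mrc1 was above 0 in all 4 lines, with 0.43 in CEK, 0.28 in Cre CON, 0.10 in CBK and 0.06 in CBK/CEK. All 6 Cre CON libraries exceeded all WT libraries for Mrc1, Cd163 and Cd68. Cd68, a lysosomal protein of macrophages, had 9.13, 10.6 and 15.9 CPM in Cre CON, where WT had 4.13, 8.09 and 9.06 CPM (log2 fold change 0.62, adjusted p = 0.201, SE 0.17), and its log2 fold change in CEK was 0.04. Csf1r, Adgre1 (the F4/80 antigen) and Cd14 (a co-receptor for endotoxin) had log2 fold changes from 0.24 to 0.45 in CEK and Cre CON and from -0.27 to 0.09 in CBK and CBK/CEK. Cx3cr1, the fractalkine receptor, was at 0.98 in CEK, 0.64 in Cre CON, 0.26 in CBK/CEK and -0.35 in CBK, with no call.

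Genes of leukocyte signalling, adhesion and the lysosome held the calls of the Cre and CEK lines. Itgb2 encodes the β2 integrin chain that leukocytes use to hold on to vessel walls. Cre CON libraries had 5.89, 7.48 and 8.66 CPM of Itgb2, all above WT with 3.37, 4.31 and 5.51 CPM, a log2 fold change of 0.75 (edgeR adjusted p = 0.0245, SE 0.13). CEK libraries had 4.33, 5.11 and 6.23 CPM, against 2.67, 3.90 and 5.56 CPM in E4BP4 FLOX. CBK libraries had 3.31, 5.00 and 6.04 CPM, against 2.90, 4.79 and 6.36 CPM in BMAL1 FLOX, and CBK/CEK libraries 3.54, 5.19 and 5.77 CPM, against 1.93, 3.96 and 6.56 CPM in BMAL1/E4BP4 FLOX. In these 3 lines the groups overlapped and Itgb2 was not called (log2 fold changes 0.39, 0.02 and 0.23). Ctss, which encodes the protease cathepsin S of antigen processing, had 17.3, 18.6 and 20.1 CPM in Cre CON, again all above WT with 9.89, 13.1 and 15.6 CPM (log2 fold change 0.52, adjusted p = 0.0245, SE 0.09). It had 11.8, 14.8 and 20.2 CPM in CEK, against 8.95, 10.2 and 15.3 CPM in E4BP4 FLOX. It overlapped in CBK (11.9, 16.4 and 18.7 CPM) against BMAL1 FLOX (12.2, 14.0 and 17.7 CPM) and in CBK/CEK (10.8, 14.2 and 15.2 CPM) against BMAL1/E4BP4 FLOX (4.59, 14.1 and 18 CPM).

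Lyz2 rose in the Cre line too, with 128, 153 and 202 CPM in Cre CON and no overlap with WT at 97.8, 107 and 119 CPM (log2 fold change 0.56, edgeR adjusted p = 0.0245, SE 0.09). In CEK it had 102.9, 136 and 149 CPM, against 65.4, 86.6 and 125 CPM in E4BP4 FLOX, a log2 fold change of 0.54 (adjusted p = 0.0824, SE 0.12) close to that of the Cre line. CBK libraries (102.5, 125 and 158 CPM) overlapped BMAL1 FLOX (105, 120 and 149 CPM), and CBK/CEK libraries (83.1, 109 and 184.9 CPM) overlapped BMAL1/E4BP4 FLOX (92.1, 106 and 127.1 CPM). All 3 calls of the Cre line were lost when Cre CON replicate 4 or WT replicate 3, 5 or 6 was left out. Itgb2 and Ctss were also lost without Cre CON replicate 3, and Lyz2 without Cre CON replicate 2 (adjusted p up to 0.0980 in these fits). With 1 estimate of the spread for all 8 groups their adjusted p-values were 0.200, 0.667 and 0.210, and with the share of ENSMUSG00000119584 as a covariate Itgb2 and Ctss had an adjusted p of 0.0542.

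Lcp1, which encodes the actin-bundling protein L-plastin of leukocytes, was the gene called in CEK. CEK libraries had 18.3, 20.5 and 25.4 CPM, all above E4BP4 FLOX with 10.5, 13.3 and 16 CPM, a log2 fold change of 0.68 (edgeR adjusted p = 0.0314, SE 0.13). Cre CON libraries had 16.1, 20.7 and 30.1 CPM, against 12.9, 14.2 and 17.1 CPM in WT, a log2 fold change of 0.56 (adjusted p = 0.0650, SE 0.12), with 1 Cre CON library inside the WT range. CBK libraries (14.8, 17.8 and 22.3 CPM) overlapped BMAL1 FLOX (14.9, 17.4 and 22.2 CPM), and CBK/CEK libraries (14.8, 17.0 and 20.5 CPM) overlapped BMAL1/E4BP4 FLOX (15.2, 18.1 and 21.8 CPM), at log2 fold changes of 0.03 and -0.07. The CEK call was lost without CEK replicate 1, 2 or 6 or E4BP4 FLOX replicate 1, 2, 4 or 6 (adjusted p up to 0.131) and with the share of ENSMUSG00000119584 as a covariate (adjusted p = 0.0777). The remaining genes of this role, Tyrobp and Fcer1g (adaptors of activating receptors), Laptm5, Cd53, Ptprc (CD45) and Itgam (the αM integrin chain), were not called in any line. In Cre CON 11 of the 12 genes of this role were above 0, in CEK 12, in CBK 9 and in CBK/CEK 7.

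**Figure D3:**
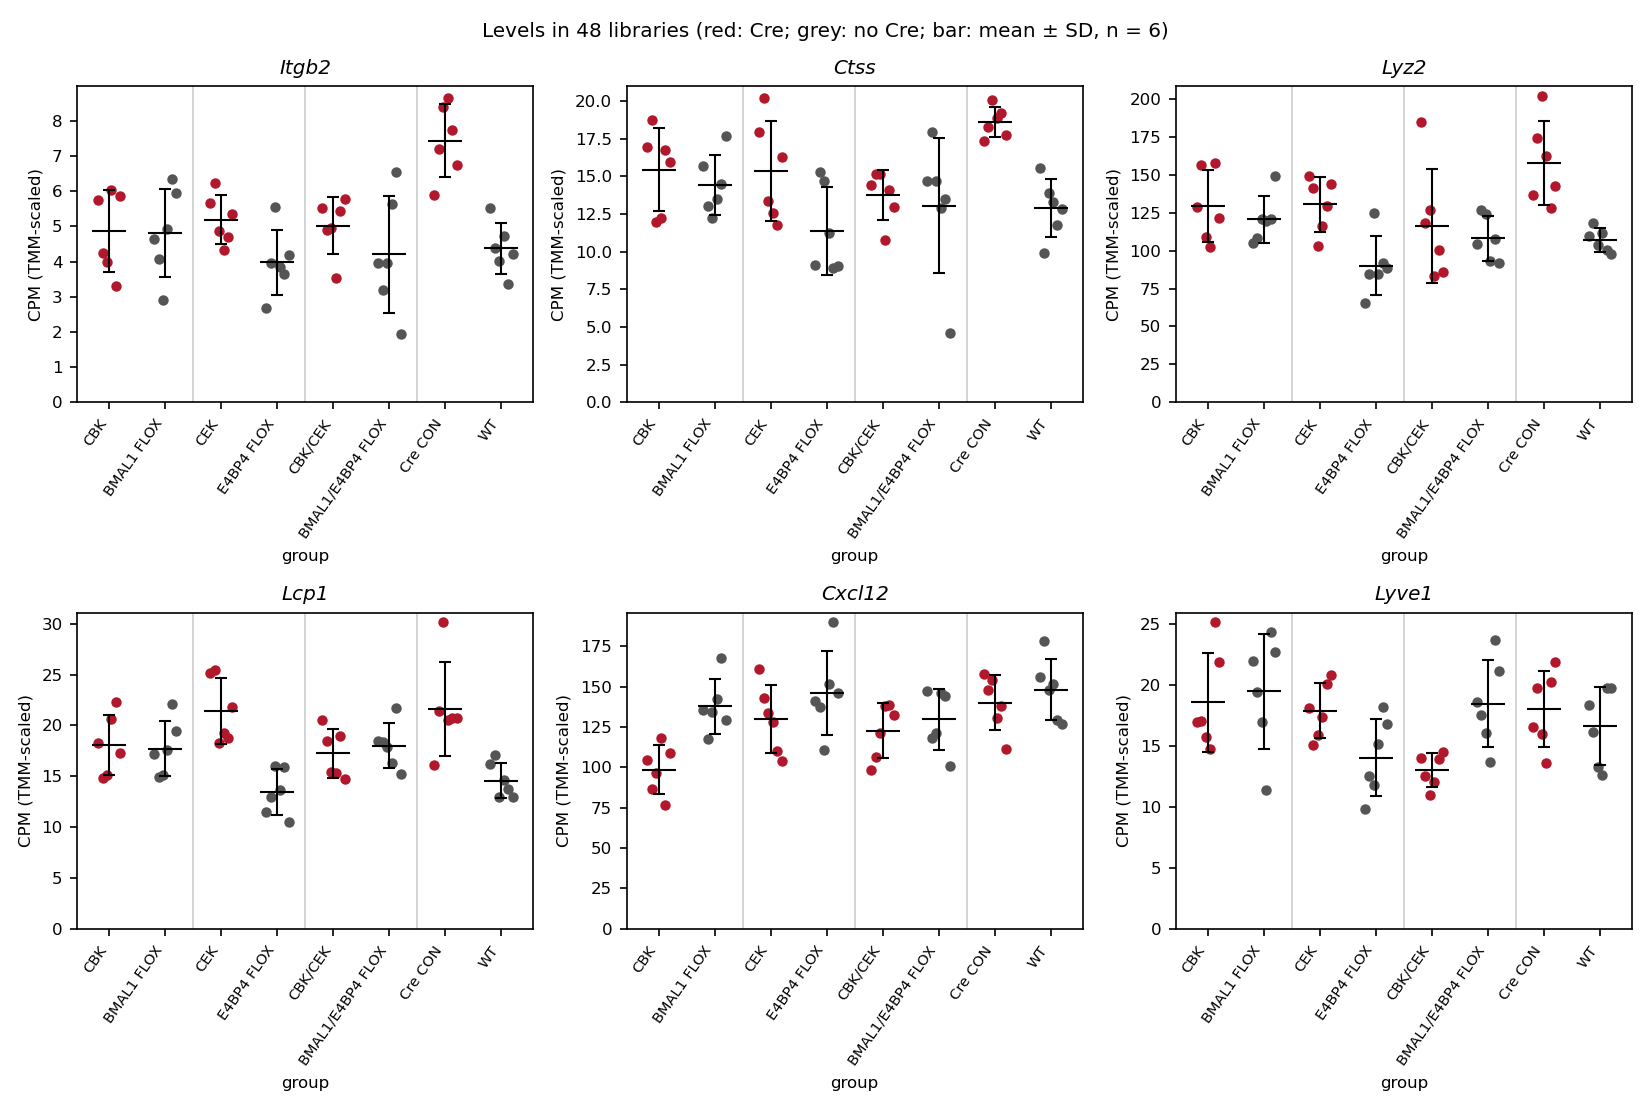
CPM (y axis) of Itgb2, Ctss, Lyz2, Lcp1, Cxcl12 and Lyve1 in each of 48 libraries by group (x axis), with the mean ± SD of 6 libraries. Cre CON lies wholly above WT for Itgb2, Ctss and Lyz2, and CEK wholly above E4BP4 FLOX for Lcp1, while Cxcl12 is low in CBK and Lyve1 in CBK/CEK.

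The 3 chains of C1q, the starter of the classical complement pathway that macrophages make, were not called in any line. Their log2 fold changes were 0.16 to 0.38 in CEK, 0.26 to 0.38 in Cre CON, -0.13 to 0.21 in CBK and -0.34 to -0.09 in CBK/CEK. C1qa, C1qb and C1qc were all highest of the CBK libraries in replicate 5 (105, 97.8 and 56.6 CPM, where the CBK medians were 41.6, 46.2 and 39.5 CPM) and all highest of the E4BP4 FLOX libraries in replicate 3 (53.8, 54.9 and 47.4 CPM, where the medians were 33, 31.9 and 30.9 CPM). The MHC class II genes Cd74, H2-Aa, H2-Ab1 and H2-Eb1, whose products carry antigen to T cells, were above 0 in all 4 lines without a call. Their log2 fold changes were 0.33 to 0.48 in CEK, 0.34 to 0.50 in Cre CON, 0.11 to 0.17 in CBK and 0.01 to 0.16 in CBK/CEK. CBK replicate 5 was again the highest CBK library for all 4 (201, 84, 79.1 and 82.8 CPM), and BMAL1/E4BP4 FLOX replicate 2 the highest of its group for all 4 (167, 59.6, 51.9 and 61.6 CPM). WT replicate 2 was the lowest WT library for all 4 (64.4, 21.7, 18.9 and 20.4 CPM).

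Among the 7 chemokine genes, Cxcl12 fell in the CBK line. CXCL12 retains leukocytes and progenitors through the receptor CXCR4, and stromal cells and endothelium are known sources. CBK libraries had 76.8, 100.65 and 118 CPM, against 117, 135 and 168 CPM in BMAL1 FLOX, with the highest CBK library just above the lowest control, a log2 fold change of -0.48 (edgeR adjusted p = 0.0216, SE 0.12). The call was lost without CBK replicate 2 or BMAL1 FLOX replicate 4 or 5 (adjusted p up to 0.0590) and without CBK replicates 3 and 5 together (adjusted p = 0.0507). CEK libraries had 104, 131 and 161 CPM, against 111, 143 and 190 CPM in E4BP4 FLOX, CBK/CEK libraries 98.2, 127.01 and 139 CPM, against 100.95, 133 and 147 CPM in BMAL1/E4BP4 FLOX, and Cre CON libraries 112, 143 and 158 CPM, against 126.6, 150 and 178 CPM in WT. Beside the CBK fall, mural cell markers summed to 651 to 921 CPM in CBK and 967 to 1045 CPM in BMAL1 FLOX, without overlap, and endothelial markers to 756 to 902 CPM in CBK and 826 to 998 CPM in BMAL1 FLOX, and their part in the result was not tested. The other 3 pairs overlapped for Cxcl12, with a log2 fold change of -0.17 for CEK and of -0.08 each for CBK/CEK and Cre CON. The monocyte attractants Ccl2 and Ccl7 were at 1.18 (SE 0.34) and 0.91 (SE 0.37) in CEK and 0.86 (SE 0.26) and 0.74 (SE 0.39) in Cre CON, but at -0.03 and -0.35 in CBK, without a call. Ccl6 had 8.77, 11.7 and 14.0 CPM in CEK, all above E4BP4 FLOX with 5.74, 7.02 and 8.50 CPM (log2 fold change 0.71, adjusted p = 0.0785, SE 0.16). Ccl9 was at 0.62 in CEK, 0.46 in Cre CON, 0.03 in CBK and -0.39 in CBK/CEK.

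The inflammatory cytokine genes had low levels. Il1b, which encodes interleukin 1β, had 0, 0.347 and 1.99 CPM in CEK, against 0, 0.0304 and 0.232 CPM in E4BP4 FLOX. Its log2 fold change of 3.08 had an SE of 1.12 (edgeR adjusted p = 0.407), and CEK replicate 5 held the highest value. Tnf did not exceed 0.782 CPM in any library. Cxcl1, a neutrophil attractant, had a log2 fold change of 1.55 in CEK (adjusted p = 0.452, SE 0.60), and its highest library was WT replicate 3 at 7.94 CPM. edgeR called Il1b, Tnf and Cxcl1 in no line. Of the transcription factors of the myeloid lineage, Irf5 had 3.77, 4.75 and 7.75 CPM in CEK, all above E4BP4 FLOX with 2.21, 2.79 and 3.55 CPM (log2 fold change 0.88, adjusted p = 0.152, SE 0.23). Spi1, which encodes PU.1, was at 0.42 in CEK and 0.44 in Cre CON and at -0.24 in CBK and 0.03 in CBK/CEK, and Irf8 ranged from -0.14 in CBK/CEK to 0.39 in CBK, without a call.

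**Figure D4:**
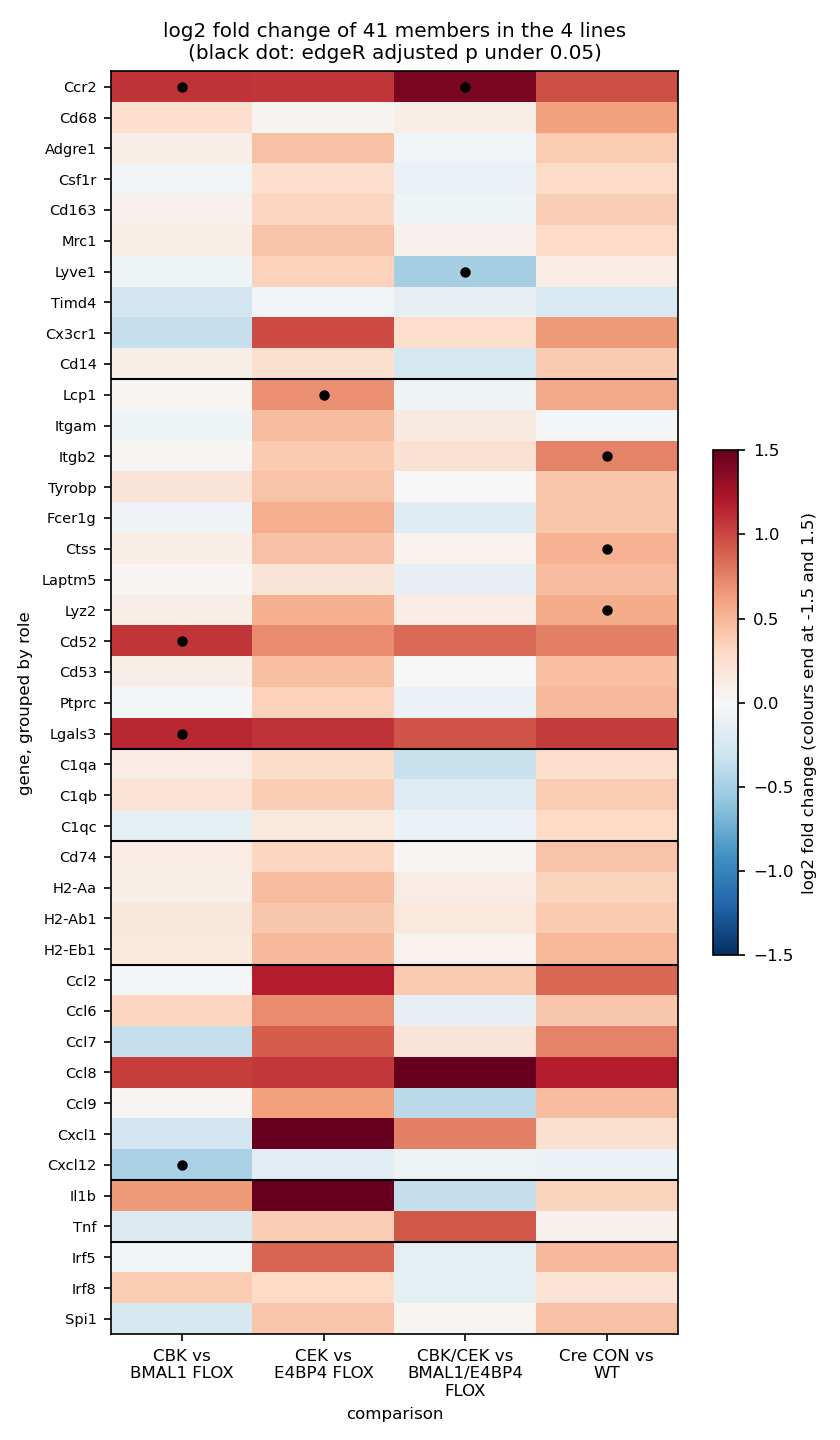
Log2 fold change (colour) of 41 genes (rows, grouped by role) in the 4 comparisons with littermates (columns). A black dot marks an edgeR adjusted p under 0.05. Ccr2, Lgals3, Cd52 and Ccl8 are red in all columns, and most other rows are red in CEK and Cre CON (medians 0.44 and 0.42) and pale in CBK and CBK/CEK (medians 0.08 and 0.01).

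Since the 4 comparisons share no library, their mean was also tested, in a fit of all 48 libraries that was chosen after these values were seen. It gives the average change with Cre, which some lines can carry without the others, and it called 14 members higher and 1 lower, where 11.2% of all genes were called. The largest were Ccl8 (log2 fold change 1.22, edgeR adjusted p = 0.000996, SE 0.27), Ccr2 (1.13, adjusted p = 8.9e-09, SE 0.14), Lgals3 (1.05, adjusted p = 1.6e-06, SE 0.15) and Cd52 (0.85, adjusted p = 9.58e-06, SE 0.14). These 4 had been grouped by their size in the same 4 lines, so their rank here is no separate result. Ccl2 followed at 0.60 (SE 0.15). Itgb2, Lyz2, Irf5, Lcp1, H2-Eb1, Ctss, H2-Ab1, Cd68 and Mrc1 were called at 0.22 to 0.35, and Cxcl12 at -0.20 (adjusted p = 0.0134, SE 0.06). Cd68, H2-Ab1 and H2-Eb1 were not called without the libraries of outlying composition, nor with no filter on low counts. Irf5 was also lost with no filter, and Cd68 with the replicate number as a block. Among the called members, Lcp1 was at 0.03 in CBK and -0.07 in CBK/CEK, Ccl2 was at -0.03 in CBK, and Irf5 was above 0 in 2 of the 4 lines. Resident markers other than Mrc1 were not called, with Lyve1 at -0.03, Timd4 at -0.17 and Cd163 at 0.17, nor were the C1q genes at 0.06 to 0.19. Of the 41 genes 14 were above 0 in all 4 lines, and 2, Timd4 and Cxcl12, in none.

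Each knockout line was then compared with the Cre line by testing the difference between their log2 fold changes. In the CBK line 0 of 41 members differed by edgeR (12 at an unadjusted p under 0.05, all lower, beside 11.9% of all genes; 0 by DESeq2), where 2.50% of all genes were called, and the median difference was -0.33 beside 0.00 for all genes. In the CEK line 0 members differed (2 at an unadjusted p under 0.05, beside 5.69% of all genes; 0 by DESeq2), beside 0.0120% of all genes, and the median difference was 0.02. The CBK/CEK line had a median difference of -0.44, with 33 of 41 members below 0 and 8 above, where 48.8% of all genes were above 0. There 14 members had an unadjusted p under 0.05 (9.75% of all genes), and edgeR called Lcp1 alone, beside 1.82% of all genes. The difference for Lcp1 was -0.63 (edgeR adjusted p = 0.0441, SE 0.17), where its log2 fold change was -0.07 in CBK/CEK and 0.56 in Cre CON. Its adjusted p ran from 0.0174 to 0.0660 over 9 alternatives, and with 1 spread for all 8 groups it was 0.0614, which misses the threshold. Ccr2 and Lgals3, which were among the genes higher in all lines, had differences with wide errors. Ccr2 differed by 0.12 (SE 0.35) in CBK, 0.11 (SE 0.37) in CEK and 0.45 (SE 0.40) in CBK/CEK, and Lgals3 by 0.08 (SE 0.39), 0.03 (SE 0.41) and -0.10 (SE 0.45), none of them called. The 3 tests share the Cre CON and WT libraries, so their medians are not independent, and CBK and CEK were not tested against each other.

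**Figure D5:**
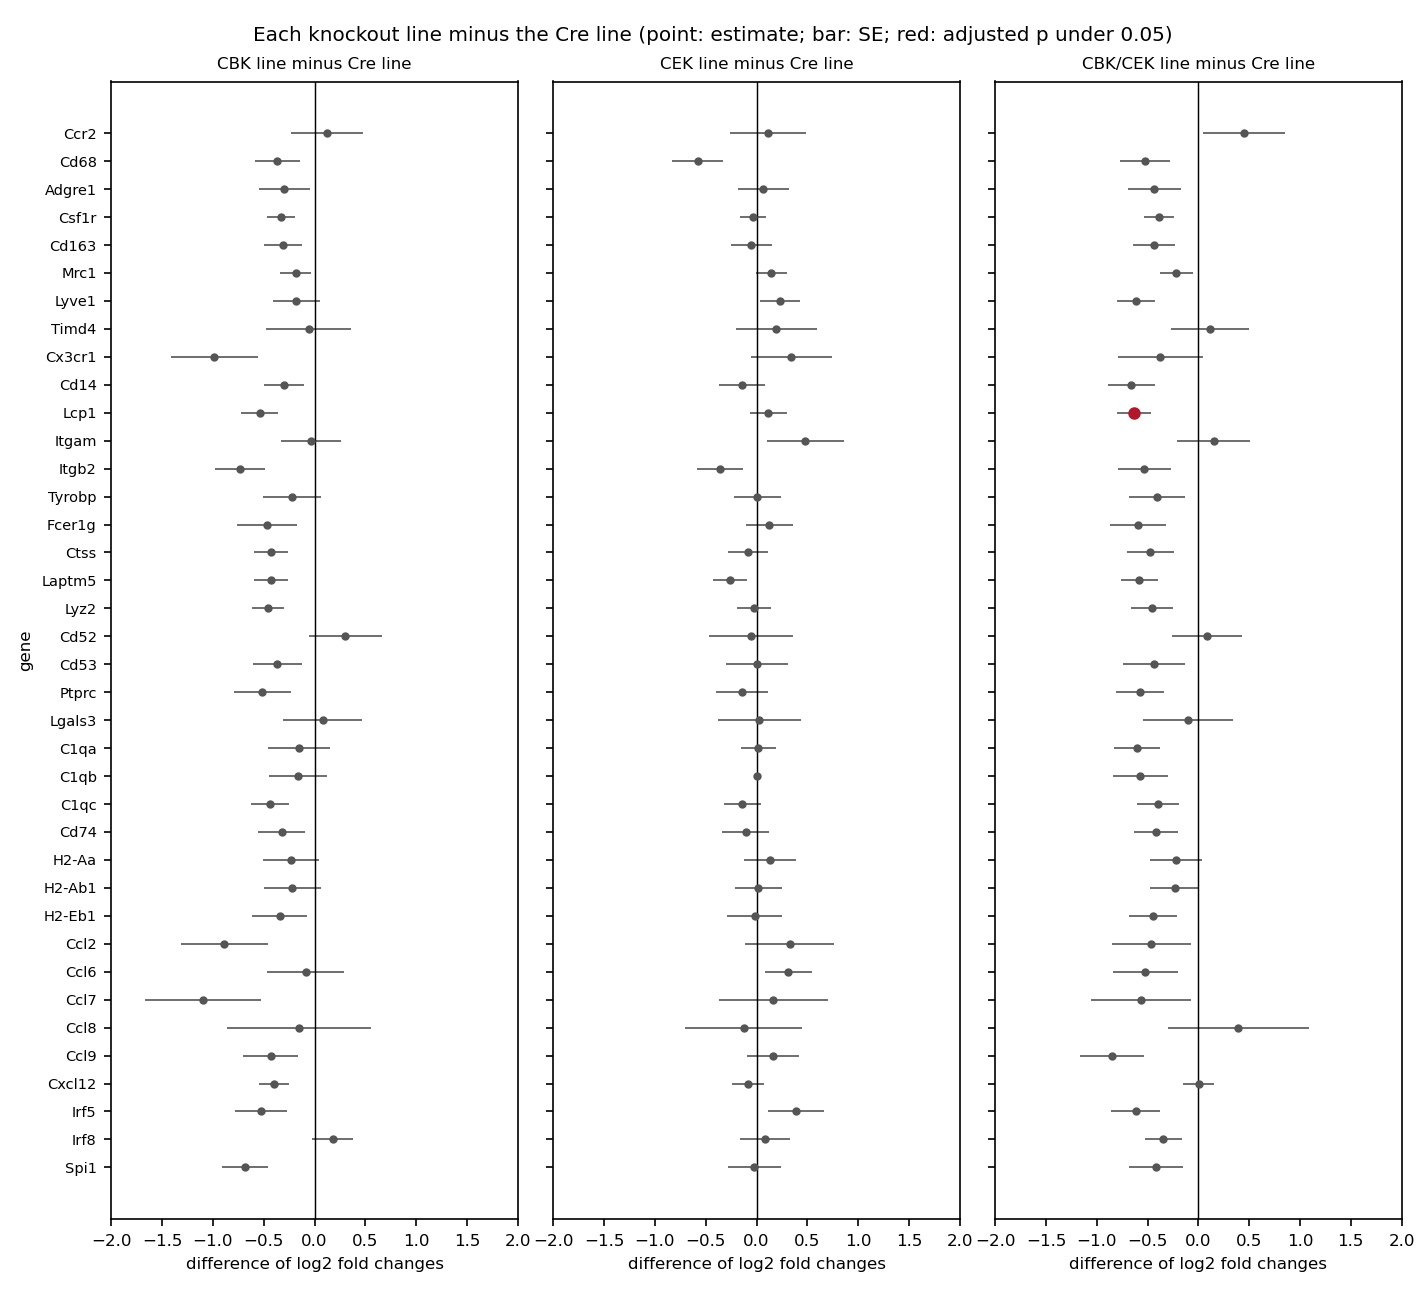
Difference between the log2 fold change in a knockout line and that in the Cre line (x axis) for 38 genes (y axis), as estimate ± SE; Il1b, Cxcl1 and Tnf, with the widest errors, are left out, and C1qb in the CEK panel has no bar because its estimate is at 0. Most points lie left of 0 in the CBK and CBK/CEK panels and around 0 in the CEK panel, and Lcp1 in the CBK/CEK panel, in red, is the one called.

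Other genes of the same biology were read from lists named beside the members. Of 28 other macrophage genes, 27 were tested and edgeR called 0 in each line. At an unadjusted p under 0.05 were 9 in Cre CON, all higher (9.01% of all genes, and 4.32% under it and higher). In CEK there were 4, all higher (8.6% of all genes, and 4.2% under it and higher). In CBK there were 2, 1 of them higher (15.1% of all genes), and in CBK/CEK 5, 1 of them higher (14% of all genes). Above 0 were 26 in Cre CON (median 0.27), 22 in CEK (median 0.30), 16 in CBK (median 0.02) and 10 in CBK/CEK (median -0.08). Their summed level was 301 to 352 CPM in Cre CON and 255 to 299 CPM in WT, without overlap. In the mean of the 4 lines 4 of the 27 rose, 14.8% beside 11.2% of all genes: Mpeg1, which encodes a pore-forming protein (0.64, SE 0.11), the lipid receptor gene Trem2 (0.45, SE 0.13), Ms4a7 (0.40, SE 0.13) and Cd84 (0.39, SE 0.13). Among 14 tested cytokine and receptor genes, Csf1 and Il15 were called, both lower, which is 14.3% of the list in CBK and in CBK/CEK, beside 5.14% and 4.28% of all genes. Csf1, the ligand of CSF1R, averaged 28.9 ± 5.16 CPM in CBK against 44.2 ± 6.75 CPM in BMAL1 FLOX (log2 fold change -0.61, edgeR adjusted p = 0.00947, SE 0.13), and 33.3 ± 3.00 CPM in CBK/CEK against 42.9 ± 4.35 CPM in BMAL1/E4BP4 FLOX (-0.37, adjusted p = 0.0285, SE 0.09). In Cre CON it stood at 49.0 ± 3.53 CPM against 47.8 ± 9.62 CPM in WT. The difference for Csf1 between the CBK and Cre lines was called (-0.65, adjusted p = 0.0362, SE 0.17). That between the CBK/CEK and Cre lines was not (-0.40, adjusted p = 0.199, SE 0.14). Il15, which sustains NK and memory T cells, fell in 3 lines: to 17.2 ± 3.85 CPM in CBK against 35.8 ± 6.18 CPM in BMAL1 FLOX (-1.06, SE 0.15), to 21.8 ± 2.95 CPM in CBK/CEK against 35.7 ± 7.52 CPM in BMAL1/E4BP4 FLOX (-0.72, SE 0.14), and to 28.6 ± 3.79 CPM in Cre CON, where WT had 38.5 ± 2.69 CPM (-0.43, adjusted p = 0.0394, SE 0.08). In CEK it averaged 34.6 ± 3.51 CPM against 43.3 ± 5.41 CPM in E4BP4 FLOX, without a call (-0.33, adjusted p = 0.317, SE 0.10). The difference for Il15 between the CBK and Cre lines was called (-0.64, adjusted p = 0.0482, SE 0.18), and that between the CBK/CEK and Cre lines was not (-0.29, adjusted p = 0.624, SE 0.16). Of 19 tested Toll-like receptor, NF-kB and inflammasome genes, the endotoxin receptor gene Tlr4 rose in CBK (0.74, adjusted p = 0.00647, SE 0.15) and the inhibitor gene Nfkbia fell in CBK/CEK (-0.47, adjusted p = 0.0323, SE 0.12). That is 5.26% of the list in each of these lines, close to the 5.14% and 4.28% of all genes. The chemokine and receptor list (19 tested), leukocyte adhesion (10), interferon response (23), other MHC class II (5) and other complement (11) held no call in the 4 lines. At an unadjusted p under 0.05 were 4 chemokine and receptor genes in CEK and 3 in Cre CON, all higher, 3 in CBK, all lower, and 0 in CBK/CEK. Interferon genes were 4 in CBK, all lower, 3 in CEK, all higher, 3 in Cre CON, 2 of them higher, and 1, lower, in CBK/CEK. Complement genes were 3 in Cre CON, all higher, 1 higher in CBK/CEK, 1 lower in CBK and 0 in CEK. Adhesion and MHC class II had 0 or 1 in each line. Of all genes 8.6% in CEK, 9.01% in Cre CON, 15.1% in CBK and 14% in CBK/CEK were under it.

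Markers of other cell types were read in the same way. The summed level of 13 neutrophil markers, 5 of them tested, was 5.92 to 10.2 CPM in CBK/CEK and 4.17 to 4.89 CPM in BMAL1/E4BP4 FLOX (means 7.51 and 4.61 CPM). Lcn2, a siderophore-binding protein that stressed tissue also makes, was called there at 1.26 (edgeR adjusted p = 0.00075, SE 0.21), 20% of those tested beside 4.28% of all genes. Lcn2 alone averaged 4.34 CPM in CBK/CEK and 1.81 CPM in BMAL1/E4BP4 FLOX. Its log2 fold change was 1.37 in CEK, 0.96 in Cre CON and 0.34 in CBK, without a call. The difference between the CBK/CEK and Cre lines was 0.31 (SE 0.61), also not called. T and NK, B and plasma, dendritic and mast cell markers (5, 8, 7 and 5 tested) held no call in the 4 lines. In each line 0 or 1 gene of each list had an unadjusted p under 0.05, where 8.6% to 15.1% of all genes did. In the mean of the 4 lines Itgax, which encodes the CD11c integrin of dendritic cells and some macrophages, rose by 0.86 (adjusted p = 0.00247, SE 0.21). That is 14.3% of the dendritic cell list, beside 11.2% of all genes. In the Cre line 1 of 12 fibroblast markers was called, Col3a1 at 0.70 (adjusted p = 0.00123, SE 0.09), which is 8.33% beside 0.0602% of all genes. Of the 12 fibroblast markers 11 were above 0 there, beside 47.0% of all genes. Their summed level was 2952 to 3937 CPM in Cre CON and 2438 to 3330 CPM in WT. In CBK the fibroblast marker Pcolce, which aids the processing of procollagen, was called at 0.57 (adjusted p = 0.00899, SE 0.12). Fbln1, which encodes the matrix protein fibulin-1, was called at -0.51 in CBK (adjusted p = 0.0204, SE 0.12) and at -0.53 in CBK/CEK (adjusted p = 0.00925, SE 0.12). The calls are 16.7% of the fibroblast list in CBK and 8.33% in CBK/CEK, beside 5.14% and 4.28% of all genes. The summed fibroblast level was 2913 to 3480 CPM in CBK and 2739 to 3602 CPM in BMAL1 FLOX. Of the 9 genes listed as mural cell markers, the potassium channel subunit gene Abcc9 alone was called. It was at -0.77 in CBK (adjusted p = 0.0110, SE 0.17) and -0.70 in CBK/CEK (adjusted p = 0.000336, SE 0.11). That is 11.1% of the list in each of these lines, beside 5.14% and 4.28% of all genes. Of the cardiomyocyte markers the sarcomere gene Mybpc3 was called at 0.63 in CBK (adjusted p = 0.00103, SE 0.10) and 0.47 in CBK/CEK (adjusted p = 0.00430, SE 0.09), and Pln, which restrains the calcium pump, at -0.49 in CBK (adjusted p = 0.0198, SE 0.12). The calls are 18.2% of the cardiomyocyte list in CBK and 9.09% in CBK/CEK, beside 5.14% and 4.28% of all genes. Against the Cre line, Abcc9 and Fbln1 differed in CBK and in CBK/CEK, and Mybpc3 and the smooth muscle actin gene Acta2 in CBK. Cardiomyocyte markers summed to 55895 to 64003 CPM in Cre CON and 62703 to 71232 CPM in WT, with 1 of 11 above 0 beside 47.0% of all genes. The part of these other cell types in the macrophage values was not tested.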

How the data were processed

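Whole-gene read counts for 48 libraries were used as deposited. Per the submitters' processing notes, the tools were HTSeq 0.11.1, STAR 2.7.9a and bcl2fastq 2.18.0.12 and the build GRCm39. Neither strandedness nor the annotation release is given in the sources used here. Libraries were made with a SMARTER mRNA-seq kit from RNeasy-purified RNA, per the labels' protocols. The 5 summary lines, 26.9% to 47.0% of records, were left out. Gene identifiers were matched to symbols for 52093 of 53700 genes (95.1% of counts), and coordinates are of GRCm38.p6 only.

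Each line's 12 libraries were fitted alone with edgeR 4.0.16 (R 4.3.3; TMM scaling, default expression filter over the 8 groups, quasi-likelihood test), and the Benjamini-Hochberg adjustment covered all 16623 genes tested. Each line was fitted alone because its spread differed, with a median coefficient of variation of 15.0% in the Cre line, 20.7% in CBK/CEK, 21.3% in CEK and 23.1% in CBK. Fits of 24 libraries tested each knockout line's change minus that of the Cre line. Levels are TMM-scaled CPM. Alternatives were a fit of all 8 groups, RLE size factors, DESeq2 1.42.0, other filters, the replicate number as a block, the run of animal numbers and each library left out. The share of ENSMUSG00000119584 as a covariate, a fit without 4 libraries of outlying composition and the mean of the 4 lines were added after the values were seen. The scripts were tested on simulated data.

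The 42 genes and the other lists were chosen with earlier results of these data known. Every gene called in a comparison with littermates or with the Cre line is given with its values in all groups, and others as examples of their role; of other lists, up to 4 called genes per comparison with littermates or with the Cre line, and examples from the mean of the 4 lines. The labels call the libraries of a group biological replicates, and p-values measure the spread between them.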

Additional observations from a re-analysis of the deposited data

Results flagged for a closer look

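Among 336 sets of 6 libraries (42 genes in 8 groups), 28 held a library that stood apart from the other 5 by Dixon's test, 8.33%, where chance gives about 1 in 20. Receptors and surface markers with such a library were Ccr2 in BMAL1 FLOX replicate 3 (2.38 CPM), Cd68 in WT replicate 3 (4.13 CPM, the lowest), Adgre1 in Cre CON replicate 1 (6.48 CPM, the lowest) and E4BP4 FLOX replicate 2 (8.40 CPM), Cd163 in Cre CON replicate 5 (18.2 CPM) and Cx3cr1 in BMAL1 FLOX replicate 3 (4.88 CPM). Genes of signalling and the lysosome were Itgam in CBK replicate 4 (1.96 CPM), Laptm5 in E4BP4 FLOX replicate 3 (17.4 CPM), Lyz2 in BMAL1 FLOX replicate 6 (149 CPM) and Cd52 in CEK replicate 5 (6.13 CPM).

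E4BP4 FLOX replicate 3 stood apart for all 3 C1q genes, with C1qa at 53.8, C1qb at 54.9 and C1qc at 47.4 CPM. C1qa stood apart in CBK replicate 5 at 105 CPM and C1qc in CEK replicate 5 at 49.8 CPM. For MHC class II the libraries were BMAL1/E4BP4 FLOX replicate 2 (Cd74 at 167 CPM and H2-Eb1 at 61.6 CPM) and CEK replicate 4 (H2-Aa at 36.4 CPM, the lowest).

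Chemokine and cytokine genes gave Ccl7 in CEK replicate 6 (4.17 CPM), Ccl8 in CBK/CEK replicate 1 (4.29 CPM) and Cre CON replicate 3 (2.94 CPM), Ccl9 in BMAL1/E4BP4 FLOX replicate 4 (3.52 CPM, the lowest), Cxcl1 in WT replicate 3 (7.94 CPM), and Il1b in CEK replicate 5 (1.99 CPM) and E4BP4 FLOX replicate 6 (0.232 CPM). Il6 stood apart in CEK replicate 5 (0.995 CPM), BMAL1/E4BP4 FLOX replicate 6 (0.604 CPM) and WT replicate 2 (0.0549 CPM), on few reads.

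By the edgeR test of the difference, several genes outside the 42 changed otherwise in a knockout line than in the Cre line. In CBK minus Cre these were Acta2 at -1.10, Abcc9 at -0.78, Csf1 at -0.65, Il15 at -0.64, Fbln1 at -0.62 and Mybpc3 at 0.57 on the log2 scale, and in CBK/CEK minus Cre they were Abcc9 at -0.71 and Fbln1 at -0.65. Acta2 itself had a log2 fold change of -0.14 in CBK and 0.96 in Cre CON, neither called. Among the 42, changes that differed between lines were that of Lcp1, whose change in CBK/CEK minus that in the Cre line was -0.63 on the log2 scale by the edgeR test of the difference, and that of Lyve1. For Lyve1 all 6 CEK libraries lay above the E4BP4 FLOX mean (log2 fold change 0.35) and all 6 CBK/CEK libraries lay below the BMAL1/E4BP4 FLOX mean (log2 fold change -0.50); this difference was not tested.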

How the results depend on the processing

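Alternatives were followed for the called members and for Ccr2, Lgals3, Cd52 and Ccl8, and none of these changed sign. The median change of the 41 genes kept its sign in CEK and Cre CON, but not in every fit of CBK and CBK/CEK. It was -0.06 in CBK/CEK without the libraries of outlying composition, and reached -0.0012 in CBK with 1 library left out. Counts of called genes moved more. In CBK (4 called) the count was 2 without the libraries of outlying composition and 2 to 4 with 1 library left out. CEK (1 called) gave 2 with all 8 groups in 1 fit, 6 by DESeq2, 7 with no filter on low counts, 0 with the share of ENSMUSG00000119584 as a covariate and 0 to 5 with 1 library left out. CBK/CEK (2 called) gave 4 by DESeq2, 5 with the run of animal numbers, 1 without the outlying libraries and 1 to 3 with 1 library left out. Cre CON (3 called) gave 0 with all 8 groups in 1 fit, 11 by DESeq2, 6 with no filter, 1 with the share covariate and 0 to 7 with 1 library left out. For CBK/CEK minus Cre (1 called), the count was 0 with all 8 groups in 1 fit, 2 with the number run, 2 with the share covariate and 3 without the outlying libraries. The 15 calls in the mean of the 4 lines ranged from 11 to 18. Leaving out 1 library, the median ran from -0.0012 to 0.10 in CBK, 0.39 to 0.50 in CEK, -0.07 to 0.06 in CBK/CEK and 0.38 to 0.47 in Cre CON. Ccr2 and Lgals3 in CBK and Ccr2 in CBK/CEK were called in all 21 alternative fits.

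Replicate numbers are shared by the groups, but same-numbered libraries did not deviate together in every pair (correlations from -0.21 to 0.34, own number best in 1 to 3 of 6). With the replicate block the count was 2 in CBK, 0 in CEK, 3 in CBK/CEK, 2 in Cre CON and 1 in CBK/CEK minus Cre, where Lyve1 was called and Lcp1 was not (adjusted p = 0.0660). The block also left out Cd52 (0.0637) and Cxcl12 (0.0683) in CBK, Lcp1 (0.250) in CEK and Itgb2 (0.0524) in Cre CON, and added Lgals3 (0.00562) in CBK/CEK. Depth limits Il6, which had 61 counts in all.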
